A study of Mus musculus with 36 samples.

Results

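The genes described here encode the 4 TEAD transcription factors (Tead1, Tead2, Tead3 and Tead4), the vestigial-like proteins Vgll3 and Vgll4, the angiomotins Amot, Amotl1 and Amotl2, and the LIM protein Ajuba. These 10 genes were taken by name from a count table of 55291 genes made from mouse knee joints. The table covers 9 libraries, 3 for each of 3 groups, and every animal's tissue was taken at 24 h. Sham mice had no injury of the anterior cruciate ligament (ACL). Vehicle mice (labelled ACL) were injured and given 0.9% saline, and inhibitor mice (labelled ACL_PKCi) were injured and given an inhibitor of protein kinase C (PKC). The strain, age and sex of the mice, the way the ligament was injured, and the name and dose of the inhibitor are not given in the sources used here. No gene was altered by design, so no library holds a knocked-out gene that could check its label.

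TEAD proteins bind DNA but activate transcription poorly alone. They act through the coactivators YAP (Yap1) and TAZ (Wwtr1). These enter the nucleus when the Hippo kinase LATS, which the kinase MST activates, does not phosphorylate them. Vestigial-like proteins bind the same face of TEAD. VGLL4 competes with YAP there, whereas VGLL3 forms its own TEAD complexes and is known from fibroblast and muscle biology. Angiomotins are scaffold proteins of tight junctions and actin that hold YAP and TAZ in the cytoplasm and activate LATS. AJUBA binds LATS at adherens junctions under tension and limits its activity. In the knee, YAP and TAZ are studied in chondrocytes, synovial fibroblasts and bone cells.

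The short DNA motif that TEAD proteins recognise, CATTCC or, read from the opposite strand, GGAATG, was looked for on both strands in the 250 bases before each RefSeq gene start on GRCm38.p6, since Amotl2 is itself a known target gene of YAP and TEAD. It was present in 12.6% of all 32851 such windows and in 14.4% of 27025 genes. Of the 8 genes described here that have an entry, 5 held it (Tead3, Vgll3, Vgll4, Amotl2 and Ajuba). Tead2, Amot and Amotl1 had no match in this window, and Tead1 and Tead4 have no entry. The stretches around the matches that hold no annotated exon are shown 5′ to 3′ on the gene's strand, with the match in capitals.
Vgll3: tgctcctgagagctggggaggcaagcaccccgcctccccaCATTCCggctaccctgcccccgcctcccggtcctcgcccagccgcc
Vgll4: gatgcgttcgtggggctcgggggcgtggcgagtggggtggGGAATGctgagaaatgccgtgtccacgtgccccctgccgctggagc
Ajuba: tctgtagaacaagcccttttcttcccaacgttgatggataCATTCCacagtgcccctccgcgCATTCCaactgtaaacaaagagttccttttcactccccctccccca
Tead3: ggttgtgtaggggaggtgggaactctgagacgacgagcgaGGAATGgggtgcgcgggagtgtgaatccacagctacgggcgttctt
The Vgll3 stretch is at chr16:65815086-65815171 (plus strand), and its match starts 63 bases before the RefSeq start. The Vgll4 stretch, at chr6:114969240-114969325 (minus strand), lies inside the gene's annotated span but outside its exons, with the match 82 bases before the start. The Ajuba stretch is at chr14:54577780-54577887 (minus strand), with matches at 186 and 164 bases. The Tead3 stretch is at chr17:28350942-28351027 (minus strand), 182 bases before the first of its RefSeq starts. A match is only a run of letters. Binding was not measured.

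Each library held 124 to 202 M counts, of which 91.2% to 98.2% belonged to 7SL, the RNA component of the signal recognition particle. Counts outside these genes were 3.28 to 5.25 M in the sham and vehicle libraries and inhibitor library 3, and 11.9 and 11.4 M in inhibitor libraries 1 and 2, which stand apart in this way. The 10 genes together had 518 to 3009 counts per library, so single genes were measured from few reads. A normalised count is used below, which is the read count after division by effective library size (trimmed mean of M values, TMM) and rescaling to the mean of these sizes. Markers of cartilage (14 genes), connective tissue fibroblasts (12), bone-forming cells (10), skeletal muscle (16) and endothelium (10) were detected in each group, and no gene of the 13 marker lists was at 0 in all libraries. Inhibitor library 1 stood out in muscle and endothelial markers, and values without it are given beside those results that moved most.

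Vgll3 was the only one of the 10 genes to pass the test in any of the 3 comparisons. Its level was 14.0, 14.4 and 15.1 normalised counts in sham knees, 24.9, 29.7 and 28.6 in vehicle knees, and 66.0, 54.9 and 68.8 in inhibitor knees. All 3 groups were separate, with every vehicle library above every sham library and every inhibitor library above every vehicle library. The inhibitor group was 4.33-fold above sham (log2 fold change 2.12, SE 0.35, 95% interval 1.37 to 2.86, adjusted p = 0.00587, edgeR). In that comparison 3.95% of all 13823 genes tested were called, against 1 of the 10 described here. The vehicle group was 1.92-fold above sham (log2 0.94, interval 0.16 to 1.72), and this missed the threshold (adjusted p = 0.443). The inhibitor group was 2.26-fold above vehicle (log2 1.17, interval 0.48 to 1.87), which also missed it (adjusted p = 0.115). These 2 comparisons share the vehicle libraries. The raw counts behind the values were 8 to 12 in sham, 15 to 25 in vehicle and 53 to 141 in inhibitor libraries.

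**Figure D1:**
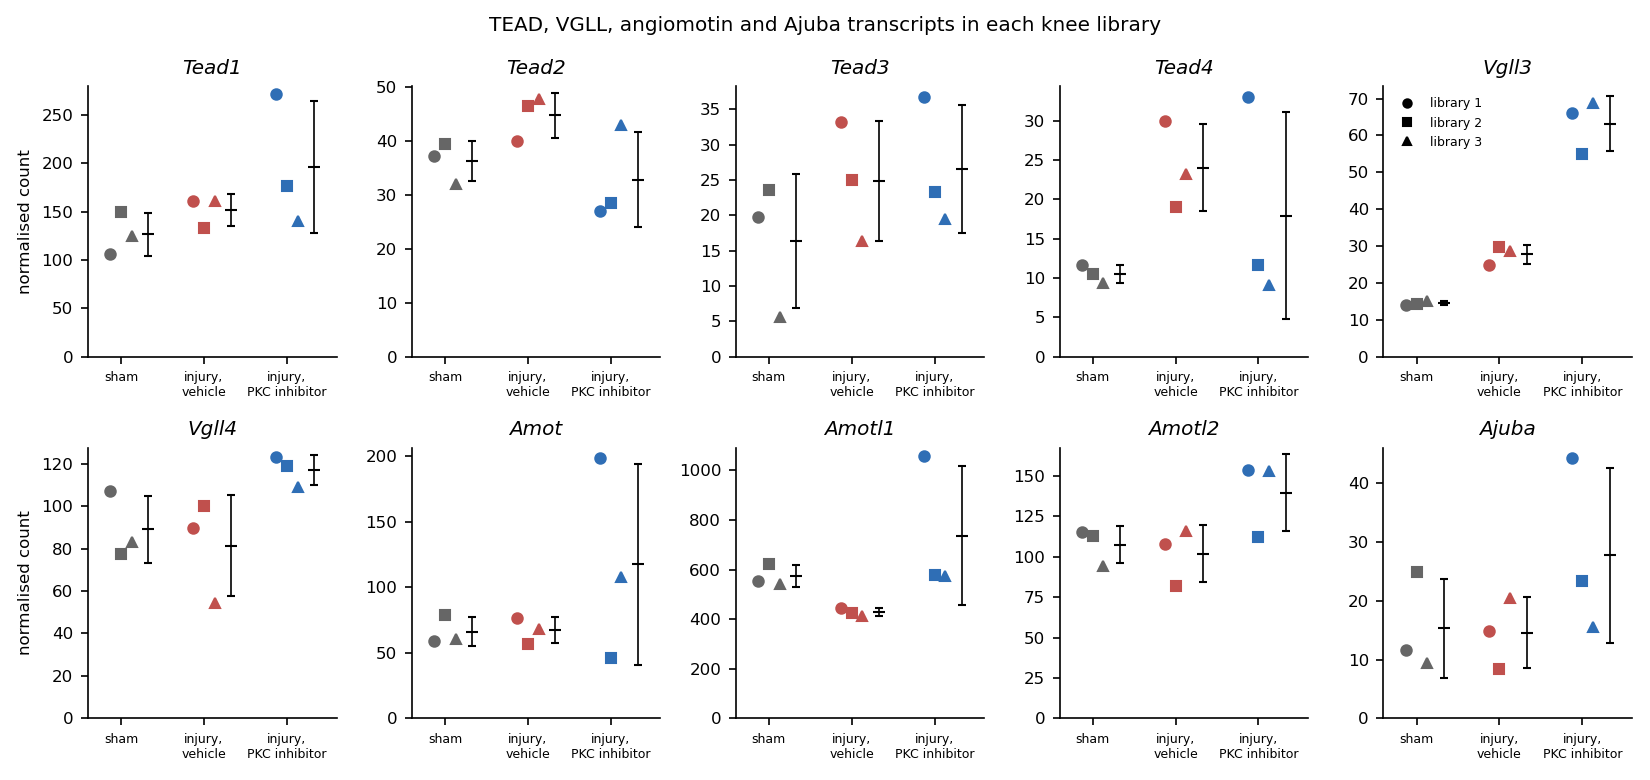
Normalised counts (linear axes from 0) of the 10 genes in sham, injured vehicle and injured PKC inhibitor libraries. Each symbol is a library, its shape giving the replicate number, and the bar beside each group is the mean ± SD (n = 3). Vgll3 separates all 3 groups, Amotl1 is lowest in the vehicle group, and Amot and Amotl1 are highest in inhibitor library 1.

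The call for Vgll3 against sham did not rest on the inhibitor libraries that stand apart. Without inhibitor libraries 1 and 2 together, the log2 fold change was 2.25 (adjusted p = 0.0325, with the lone inhibitor library assumed to vary like the other groups). Over 15 alternatives it ran from 2.05 to 2.25, with adjusted p from 8.36e-05 to 0.0355. The gene lies on mm10 at chromosome 16 from 65815257 to 65866368 (plus strand), with 7104 exonic bases and no exon shared with another gene.

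Vgll4 was measured at 107.0, 77.3 and 83.0 normalised counts in sham knees. It was at 89.7, 99.8 and 54.6 in vehicle knees and at 123.0, 118.8 and 109.0 in inhibitor knees. The inhibitor libraries lay above all others, but the differences were small, 1.31-fold against sham (adjusted p = 0.466) and 1.44-fold against vehicle (log2 0.52, interval −0.03 to 1.07, adjusted p = 0.402). Vehicle and sham libraries overlapped (log2 −0.13, interval −0.70 to 0.43). Per kilobase of exon, Vgll3 stood at 0.10, 0.14 and 0.14 of the level of Vgll4 in sham libraries, 0.21, 0.23 and 0.40 in vehicle libraries and 0.41, 0.35 and 0.48 in inhibitor libraries. Vgll4 was thus the more abundant transcript in each library, and the ratio, chosen after the values were seen, was higher in each injured library than in any sham library.

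Tead1 had the highest mean level per kilobase of the 4 TEAD genes in each group, with 34.4% to 50.7% of their summed counts per kilobase. Its normalised counts were 105.8, 149.5 and 124.5 in sham, 161.2, 133.1 and 161.0 in vehicle, and 271.5, 176.9 and 140.2 in inhibitor libraries, so the groups overlapped. The log2 fold change was 0.26 for vehicle against sham (adjusted p = 0.856) and 0.64 for inhibitor against sham (interval 0.10 to 1.17, adjusted p = 0.185). Without inhibitor library 1 the second value was 0.34. In a fit with the muscle marker level as a covariate it was 0.74, with adjusted p = 0.0374, below the threshold.

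Tead2, the TEAD gene best known from early embryos, was at 37.2, 39.3 and 32.1 normalised counts in sham and 39.9, 46.4 and 47.7 in vehicle libraries. All vehicle libraries were above all sham libraries by a small margin (log2 0.30, interval −0.43 to 1.03, adjusted p = 0.879). In inhibitor libraries it was at 27.0, 28.4 and 42.8, and it was the TEAD gene with the lowest log2 fold change against vehicle (−0.47, interval −1.18 to 0.24, adjusted p = 0.568). A stretch of 13 exonic bases of Tead2 overlaps Cd37 on the opposite strand, and the counting was stranded.

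Tead4, known from trophectoderm and from muscle progenitors, was at 11.6, 10.5 and 9.4 normalised counts in sham knees and at 29.9, 19.0 and 23.2 in vehicle knees. Each vehicle library exceeded each sham library, a 2.24-fold difference from raw counts of 5 to 10 in sham and 16 to 18 in vehicle libraries. With so few reads the interval was wide (log2 1.16, interval −0.07 to 2.40, adjusted p = 0.629). Inhibitor libraries were at 33.0, 11.7 and 9.1, on both sides of the vehicle values (log2 −0.40, interval −1.54 to 0.74, adjusted p = 0.789). Without inhibitor library 1 that value was −1.16 (adjusted p = 0.432). Tead3 was similarly sparse, at 19.8, 23.6 and 5.7 in sham, 33.2, 24.96 and 16.4 in vehicle and 36.8, 23.4 and 19.5 in inhibitor libraries. Its log2 intervals spanned −0.57 to 1.67 for vehicle against sham and −0.94 to 1.16 against vehicle for the inhibitor group. Tead4 exceeded the minimum level of the low-count filter in none of the sham, 3 of the vehicle and 2 of the inhibitor libraries, Tead3 in 2, 3 and 3, and Ajuba in 1, 1 and 3. All 10 genes passed the filter, the other 7 of them in all 9 libraries.

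Amotl1 had the highest level per kilobase of the 10 genes in each group, and it supplied 60.6% to 71.1% of the summed angiomotin level per kilobase. It was at 555.8, 624.0 and 543.1 normalised counts in sham knees and at 445.3, 425.5 and 411.9 in vehicle knees. All vehicle libraries lay below all sham libraries, but the difference missed the threshold (1.34-fold lower, log2 −0.43, SE 0.23, interval −0.92 to 0.07, adjusted p = 0.658). Inhibitor libraries were at 1059.8, 576.5 and 575.0, all above all vehicle libraries (1.72-fold, log2 0.79, interval 0.29 to 1.28, adjusted p = 0.14). Inhibitor libraries 2 and 3 lay within the sham range and library 1 far above it. Without library 1, the inhibitor against vehicle value was 0.43 (adjusted p = 0.34). With no filter on low counts it was 0.84 (adjusted p = 0.0164), the only setting that called it.

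Amot, the founding angiomotin, first described as a binding partner of angiostatin in endothelium, showed no such separation. Sham libraries were at 59.3, 78.7 and 60.3 normalised counts, vehicle libraries at 76.4, 57.1 and 68.2, and inhibitor libraries at 198.8, 46.0 and 107.7. The inhibitor libraries spanned more than the range of all other libraries, so the log2 fold change of 0.80 against vehicle (interval −0.11 to 1.71, adjusted p = 0.441) describes no common shift. It was 0.15 without inhibitor library 1. Amotl2, a regulator of junctional actin in endothelium, was at 115.1, 112.7 and 94.3 in sham, 108.0, 82.0 and 115.9 in vehicle and 153.8, 112.2 and 153.2 in inhibitor libraries. Its log2 fold changes were −0.08 for vehicle against sham (interval −0.59 to 0.42) and 0.45 with the inhibitor against vehicle (interval −0.04 to 0.94, adjusted p = 0.423).

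Ajuba was at 11.6, 24.9 and 9.4 normalised counts in sham knees, 15.0, 8.3 and 20.5 in vehicle knees and 44.3, 23.4 and 15.6 in inhibitor knees. The groups overlapped in each comparison. The log2 fold change was −0.10 for vehicle against sham (interval −1.35 to 1.14) and 0.95 for inhibitor against vehicle (interval −0.23 to 2.12, adjusted p = 0.485), or 0.46 without inhibitor library 1. Raw counts of 5 to 19 in the sham and 7 to 15 in the vehicle libraries lie behind these wide intervals, which include changes of either sign. The gene passed the low-count filter through the inhibitor libraries, so a higher level there is no independent evidence of a rise.

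Inhibitor library 1 held the highest value of Tead1, Tead3, Tead4, Vgll4, Amot, Amotl1, Amotl2 and Ajuba. The same library had the highest summed skeletal muscle markers, 119760 normalised counts for 16 genes, against 22864 to 54062 in sham, 13663 to 22270 in vehicle and 6671 and 14667 in the other 2 inhibitor libraries. Its summed level of 10 endothelial markers was 3640, against 741 to 1299 in sham, 821 to 1011 in vehicle and 714 and 658 in the other 2. Adipocyte markers (8 genes) were also highest there, at 3143, against 617 to 1784 in the other 8 libraries. Vgll3 was not highest in this library. Cartilage markers were at 2567, 2136 and 5824 in inhibitor libraries 1 to 3, against 9045 to 28024 in the sham and vehicle libraries. None of the 12 tested cartilage markers had a higher fitted level in inhibitor than in vehicle libraries (median log2 −1.30), beside 53.8% of all genes. Against sham none was higher in the inhibitor group either (median log2 −1.88). In that comparison, the one in which Vgll3 was called, 4 of the 12 fell by the test, beside 371 of all 13823 genes tested. Summed fibroblast markers were at 39954, 35507 and 75034 in the inhibitor libraries and at 92247 to 164090 in the other 6. Against vehicle, 7 of the 12 genes had a higher fitted level in the inhibitor group (median log2 0.07), so abundant genes carried the lower sum. Against sham, 3 of the 12 were higher (median log2 −0.15), and 1 fell by the test.

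Immune markers also moved with the comparison in which Vgll3 was called. All 12 monocyte and macrophage markers had a higher fitted level in inhibitor than in sham libraries (median log2 0.77), and 1 of them rose by the test. Their sums were 2508 to 3095 normalised counts in sham, 3035 to 4973 in vehicle and 2963 to 5535 in inhibitor libraries. Of 12 neutrophil markers 7 fell against sham in the inhibitor group, with sums of 16587 to 22800 in sham, 9070 to 11580 in vehicle and 9047 to 19189 in inhibitor libraries. Of 7 tested B lineage markers 4 fell, with sums of 598 to 685, 487 to 510 and 276 to 411. In the same comparison 175 of all 13823 genes tested rose by the test and 371 fell, and 52.4% had a higher fitted level. None of 10 markers of bone-forming cells was higher in inhibitor than in sham libraries (median log2 −0.77), nor any of 7 erythroid markers (−0.88). Of 6 tendon and ligament markers, 4 were higher against sham (median 0.45) and 6 against vehicle (0.89). None of these bone, erythroid and tendon markers was called. The part of the immune, cartilage, fibroblast, endothelial, adipocyte, bone, erythroid and tendon differences in the results was not tested. For muscle, a fit with the marker level as a covariate gave 2.14 for Vgll3 against sham on the log2 scale (adjusted p = 0.00146). In that fit Tead1 and Amot also passed against sham (0.91 for Amot, adjusted p = 0.0479), and the inhibitor against vehicle value of Amot was 0.42 in place of 0.80. In bulk tissue, fewer cells of a type and less RNA per cell cannot be told apart.

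**Figure D2:**
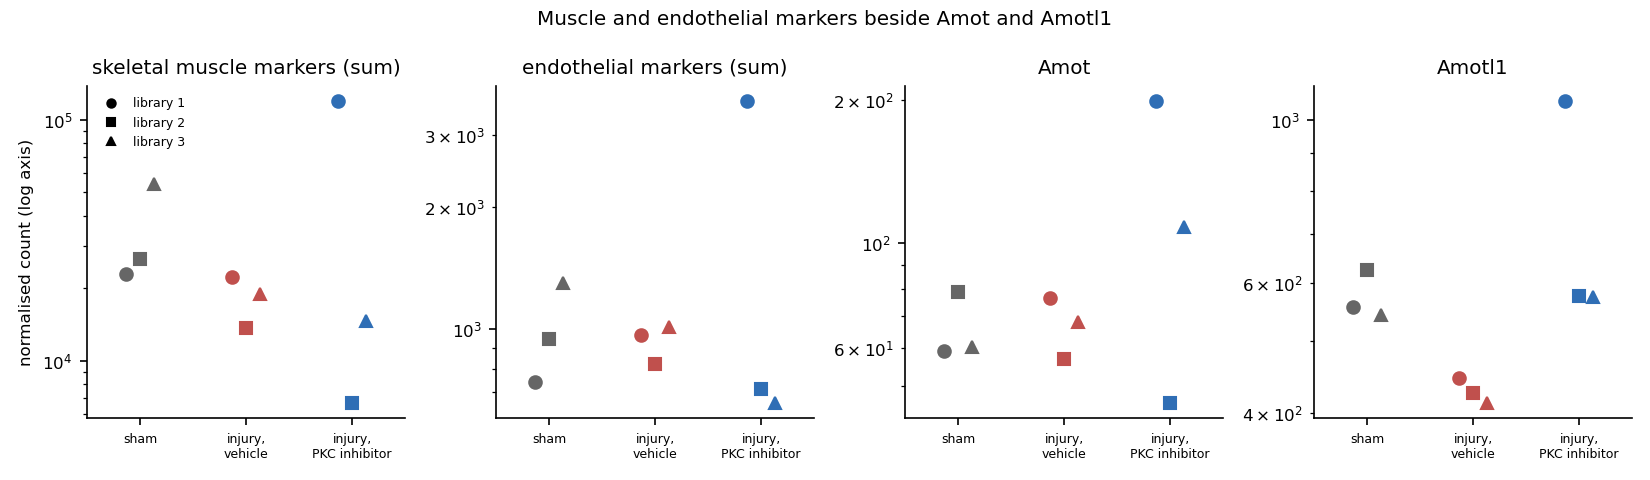
Summed normalised counts of skeletal muscle and endothelial markers beside Amot and Amotl1 in each library (log axes, not starting at 0), with the shape giving the library number in each group. Inhibitor library 1 is highest in all 4 panels, at 119760 for muscle, 3640 for endothelium, 198.8 for Amot and 1059.8 for Amotl1.

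For vehicle against sham, none of the 10 genes was called by edgeR or DESeq2, and Vgll3 alone had an unadjusted p under 0.05 (0.0208 by edgeR). Of all genes tested, 0.304% were called and 8.28% had an unadjusted p under 0.05. Libraries did not overlap for 3 genes higher in vehicle (Tead2, Tead4 and Vgll3) and 1 lower (Amotl1), while 17.0% of all genes tested had groups that did not overlap in either direction. Tead4 met the minimum level of the low-count filter in no sham library. Its entry rested on the vehicle and inhibitor libraries, so its separation from sham is no independent evidence of a rise. The median log2 fold change of the 10 was 0.14, beside −0.02 for all genes.

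For inhibitor against vehicle, none of the 10 was called by edgeR or DESeq2, with 0.731% called over all genes. Those with an unadjusted p under 0.05 were Vgll3 (0.00251) and Amotl1 (0.00387), both by edgeR, beside 13.4% of all genes tested. Vgll3, Vgll4 and Amotl1 were higher without overlap, and 18.9% of all genes had groups that did not overlap. The median of the 10 was 0.49, beside 0.04 for all genes, and 8 of 10 were above 0, beside 53.8% of all genes. Among these 8, Ajuba met the minimum level of the low-count filter in 1 sham, 1 vehicle and 3 inhibitor libraries. Its entry rested on the inhibitor libraries, so its values above 0 against vehicle and sham are no independent evidence of a rise. Without inhibitor library 1 the median of the 10 was 0.26, with 7 above 0. For inhibitor against sham, the median was 0.65 (0.31 without inhibitor library 1), beside 0.03, and Vgll3 and Vgll4 were higher without overlap, beside 22.9% of all genes. In simulated vehicle against sham data with 13823 genes, 22% of 2-fold and 81% of 4-fold changes were called. The changed genes were not drawn from those with the lowest mean levels, so these shares do not describe the genes with the fewest reads.

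**Figure D3:**
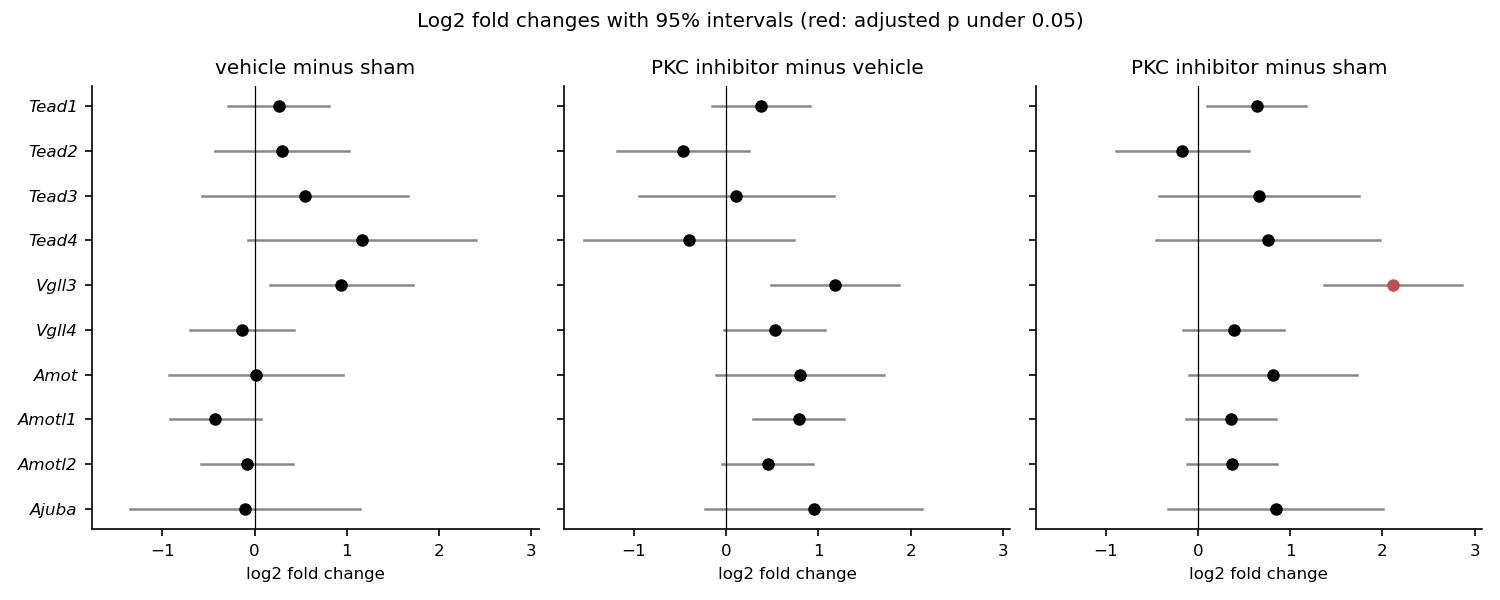
Log2 fold changes (points) with 95% intervals (lines) of the 10 genes in the 3 comparisons, from edgeR. The red point, Vgll3 for inhibitor against sham at 2.12, is the only one with an adjusted p under 0.05, and most other intervals include 0.

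Levels per kilobase of exon put the genes in a similar order in each group. Amotl1 led with means of 57.1 ± 4.3 in sham, 42.5 ± 1.7 in vehicle and 73.2 ± 27.8 in inhibitor libraries (SD, n = 3), with each library above each value of the next gene. Amotl2 and Vgll4 followed, at 17.1 ± 1.8 and 16.5 ± 2.9 in sham, and their libraries overlapped in each group. Tead1 came next in each group, below Vgll4 without overlap in sham and inhibitor libraries, and with libraries that overlapped those of the gene below it. From there to the end of the order, neighbouring genes overlapped in each group. Vgll3 was last in sham (2.04 ± 0.08), ninth in vehicle (3.91 ± 0.35) and sixth in inhibitor libraries (8.90 ± 1.03).

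Ratios within a library, chosen after the values were seen, put the families side by side. The summed angiomotins per kilobase were 3.71, 3.48 and 3.94 times the summed TEADs in sham libraries and 2.11, 2.18 and 2.20 times in vehicle libraries. In inhibitor libraries the ratio was 3.81, 3.14 and 3.82, in the range of sham or just below it and above all vehicle libraries. Vehicle was lower than sham by 0.78 on the log2 scale, and inhibitor was 0.73 above vehicle. No test is given for these ratios, since an exact permutation test of 3 against 3 libraries cannot go below a two-sided p of 0.1. The TEAD sum was 19.3 to 25.7 normalised counts per kilobase in sham and 28.5 to 33.5 in vehicle libraries. The angiomotin sum was 76.1 to 89.3 and 62.1 to 70.5. Both parts of the ratio thus differed without overlap, in opposite directions, where 17.0% of single genes tested did not overlap. Tead4 made up 2.92 of the TEAD sum in sham and 6.68 in vehicle (means). It met the minimum level of the low-count filter in no sham library, which limits each ratio to the TEAD sum. In inhibitor libraries the angiomotin sum was 153.4, 80.6 and 94.3 and the TEAD sum 40.3, 25.7 and 24.7. Inhibitor library 1, high in both sums, had a ratio like that of inhibitor library 3.

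**Figure D4:**
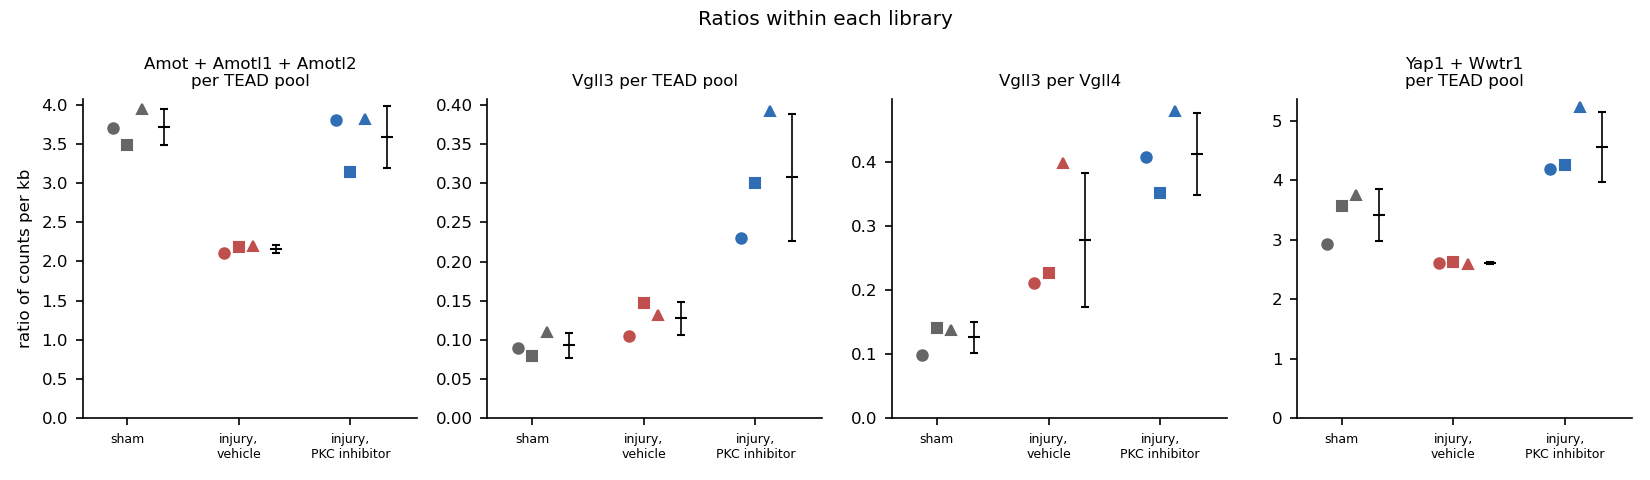
Ratios of counts per kilobase within each library (linear axes from 0), with the mean ± SD of each group (n = 3). The angiomotin sum, Vgll3, and Yap1 plus Wwtr1 are each divided by the TEAD sum, and Vgll3 is also divided by Vgll4. The vehicle libraries, at 2.11 to 2.20 in the first panel, lie below all others, and Vgll3 per TEAD is highest in the inhibitor libraries.

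Vgll3 per summed TEADs was 0.090, 0.079 and 0.110 in sham, 0.105, 0.147 and 0.131 in vehicle and 0.231, 0.301 and 0.392 in inhibitor libraries. The inhibitor libraries lay above all others. The coactivators themselves differed as follows. Yap1 was at 208.1, 217.6 and 205.6 normalised counts in sham, 214.4, 171.2 and 199.2 in vehicle and 327.8, 253.6 and 270.0 in inhibitor libraries, and passed no test (adjusted p = 0.247 for inhibitor against sham). Wwtr1 rose 1.98-fold in inhibitor against sham libraries (log2 0.98, interval 0.49 to 1.47, adjusted p = 0.0295). Their summed level per kilobase was 2.60 to 2.62 times the TEAD sum in vehicle libraries, 2.93 to 3.76 times in sham and 4.20 to 5.24 times in inhibitor libraries.

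Of 16 Hippo core genes, 15 could be tested. By edgeR none was called in the first 2 comparisons (vehicle against sham, inhibitor against vehicle). In these, 1 and 3 had an unadjusted p under 0.05, beside 8.28% and 13.4% of all genes tested. For inhibitor against sham, 5 had an unadjusted p under 0.05, beside 18.0% of all genes. In that comparison 1 rose by the test (Wwtr1) and none fell, beside 3.95% of all genes called. DESeq2 called the same numbers. The list's median log2 fold change was −0.03, 0.15 and 0.17 in the 3 comparisons. The extremes for vehicle against sham were Map4k4, a kinase that can stand in for MST (log2 0.44, adjusted p = 0.593), and Stk4, which encodes MST1 (453.5, 395.9 and 394.1 normalised counts in sham, 305.7, 315.0 and 289.2 in vehicle). For inhibitor against vehicle, Taok2, an activator of MST, had the lowest value (log2 −0.63, adjusted p = 0.204). The Wwtr1 call was lost without sham library 1 (adjusted p = 0.143), without sham library 3 (0.0985) and without inhibitor libraries 1 and 2 together (0.0988).

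Of 21 YAP/TAZ-TEAD target genes, 19 could be tested. Ankrd1, an ankyrin repeat protein of stressed muscle and fibroblasts, rose with injury. It was at 2.3, 3.9 and 3.8 normalised counts in sham and 56.5, 76.1 and 27.3 in vehicle libraries. The rise was 15.8-fold (log2 3.98, SE 0.65, interval 2.59 to 5.37, adjusted p = 0.0209), beside 0.304% of all genes called. With sham values near 0, the size of this fold is uncertain. Ankrd1 passed the low-count filter through the vehicle and inhibitor libraries, so its separation from sham is not independent of that filter. The Ankrd1 call needed all but 1 of the sham and vehicle libraries. Leaving out vehicle library 3 kept it (adjusted p = 0.0411), whereas leaving out any other sham or vehicle library gave 0.0522 to 0.177. For inhibitor against vehicle no target was called by edgeR or DESeq2, with 5 at an unadjusted p under 0.05, beside 13.4% of all genes. For inhibitor against sham 3 rose, Ankrd1 (log2 4.36, adjusted p = 0.00321, with a log2 value of 3.63 without inhibitor library 1), Myof, a membrane repair protein (log2 0.89, adjusted p = 0.0272), and Rbms3, an RNA-binding protein (log2 1.08, adjusted p = 0.0236), and none fell, beside 3.95% of all genes called. Myof and Rbms3 lost their calls without sham library 1 (adjusted p = 0.123 and 0.121) and without sham library 3 (0.0708 and 0.0949). Myof also lost it without sham library 2 (0.0817) and without inhibitor library 2 (0.103).

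Targets did not share a direction. Ccn1, a matrix protein often used as a YAP reporter, was at 51.2, 64.2 and 56.6 normalised counts in sham, 109.7, 99.8 and 120.0 in vehicle and 70.5, 60.4 and 79.2 in inhibitor libraries. The vehicle libraries were the highest, without overlap. Of all genes tested, 17.0% did not overlap for vehicle against sham and 18.9% for inhibitor against vehicle. Neither difference of Ccn1 was called. On the log2 scale it was 0.94 for vehicle against sham (adjusted p = 0.179) and −0.66 for inhibitor against vehicle (interval −1.17 to −0.14, adjusted p = 0.238). Nt5e, an ectoenzyme that makes adenosine, had the lowest value in that comparison (−0.88, adjusted p = 0.6), from libraries that ranged from 6.0 to 45.6 within the inhibitor group. The list's median was 0.09 with injury, 0.03 with the inhibitor against vehicle and 0.28 against sham.

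Of 16 angiomotin partners and turnover genes (polarity scaffolds, ubiquitin ligases of the Nedd4 family, tankyrases), 15 could be tested and none was called in any comparison by edgeR, with 0, 5 and 6 at an unadjusted p under 0.05, beside 8.28%, 13.4% and 18.0% of all genes tested. DESeq2 called none. Mpdz, a polarity scaffold that binds angiomotins, had the highest value for inhibitor against vehicle (log2 0.87, interval 0.31 to 1.42, adjusted p = 0.148). It was at 259.5, 148.4 and 144.1 normalised counts in inhibitor libraries and 88.7 to 110.6 in vehicle libraries, so it too was highest in inhibitor library 1, without which the value was 0.54. Arhgap17 was lowest (log2 −0.55, adjusted p = 0.216), at 107.7 to 128.3 in inhibitor and 161.2 to 188.2 in vehicle libraries. The list's median was 0.00 for vehicle against sham and 0.32 for inhibitor against vehicle.

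All 7 genes listed beside Ajuba could be tested (LIM proteins of the Ajuba and zyxin families and their junctional partner Ctnna1). None was called in any comparison by edgeR or DESeq2. By edgeR 1, 1 and 3 had an unadjusted p under 0.05, beside 8.28%, 13.4% and 18.0% of all genes tested. The medians were 0.21, 0.22 and 0.49. Of 5 other TEAD cofactors, only Irf2bp2, a partner of VGLL4, could be tested, and it was not called (log2 −0.19 and 0.29 for the first 2 comparisons). Vgll1 and Fam181a had no count in any library. Vgll2, the family member of skeletal muscle, had 3 to 27 raw counts per library, most in inhibitor library 1, as did Fam181b with 0 to 23.

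The protein-coding genes nearest to each gene were found by the Euclidean distance between log2 CPM values (counts relative to effective library size, with 2 added as prior count) over the 9 libraries, each gene centred on its own mean, among 12251 genes. Nearest to Vgll3 were Dab2 (0.87), an endocytic adaptor, Lipa (0.92), the lysosomal acid lipase, and Hbegf (1.005), a ligand of the epidermal growth factor receptor, against a median distance of 2.71 to all genes. Nearest to Amotl1 were Acadsb (0.32), Tcf4 (0.40) and Klf9 (0.42), against a median of 1.67. Nearest to Tead1 were Fermt2 (0.45), an integrin activator, Tatdn1 (0.45) and Rock2 (0.47). Nearest to Amot were Obsl1 (0.63), Sgcb (0.68) and Ank2 (0.75), of which Sgcb encodes a muscle sarcoglycan. Among the 10 genes themselves, Amotl1 and Amotl2 were each other's nearest (0.87), and Vgll3 was the farthest gene for 7 of the other 9 (1.92 to 2.76). These distances describe 9 libraries that share depth and tissue differences.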

How the data were processed

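Knee joint RNA was isolated with TRIzol, ribosomal RNA was removed, and paired-end reads of 100 bases were sequenced, per the labels' protocols. The deposited values are raw read counts per gene name, which the authors obtained with featureCounts 2.0.1 (paired, reverse-stranded, GENCODE M25 exons), per the file headers. Reads with several alignments counted in full at each, and reads over several genes for each of them, so close paralogues can share reads. HISAT2 and mm10 are named in the submitters' processing notes, with no aligner version given in the sources used here. Columns were matched to samples by name. The command in the header lists the alignments in another order. The series has 36 libraries, and 27 columns of its other tables, whose codes match no sample title, were not used.

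The 9 libraries were fitted together with edgeR 4.0.16 (R 4.3.3), by a two-sided quasi-likelihood F test with TMM scaling, robust dispersions and 1 mean per group, on the 13823 genes that passed filterByExpr (minimum count 10). P-values were adjusted by the Benjamini-Hochberg method over these genes, with a threshold of 0.05. Every adjusted p comes from this test unless DESeq2 (1.42.0) is named. The SE was derived from the log2 fold change and its F statistic, and intervals are at 95%. The design text calls the samples biological replicates, and p-values measure the spread between them. Raw counts limit precision most for Tead3, Tead4, Vgll3 and Ajuba. The procedure was tested on simulated data. Replicate numbers showed no trace of pairing, since deviations from group means of same-numbered libraries correlated from −0.24 to 0.07 over 9 pairs. Libraries with different numbers ran from −0.167 to 0.202. With so few libraries per group, this check cannot exclude pairing or a shared batch. Python 3.11.15, pandas 2.3.3, numpy 2.4.6 and matplotlib 3.10.9 made the tables and figures.

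The genes and all lists were chosen with earlier results of these data known. Besides the 10 genes, those named are the called genes of 5 pathway lists and the 2 highest and 2 lowest of each list for vehicle against sham and inhibitor against vehicle, given in part. Yap1 is named as the partner of Wwtr1. Gene coordinates (mm10) run from the outermost exon bases in the deposited table, and promoter windows come from RefSeq on GRCm38.p6. Levels per kilobase use the deposited exonic length. Alternatives were upper-quartile scaling, no low-count filter, only the 2 groups compared, 7SL and U3 genes left out, a muscle covariate, a replicate block, libraries left out, DESeq2 and, added after the data were seen, protein-coding genes only.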

Additional observations from a re-analysis of the deposited data

How the results depend on the processing

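Of 448 alternative values for the 10 genes, 427 kept direction and side of the threshold. None lost a call, 3 gained one, and 18 turned sign, in 8 results none of which was called. The low depth outside 7SL genes limits Tead3, Tead4 and Ajuba most. Ajuba could not be fitted with only vehicle and sham libraries in the fit, nor Tead4 with only inhibitor and sham libraries. The cause of the changes below was not tested.

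With no low-count filter, inhibitor against vehicle gave 1 of the 10 genes (Amotl1), 1 Hippo core gene (Wwtr1) and 1 angiomotin partner (Mpdz), and the comparison with sham 1 partner. The muscle covariate gave 1 Hippo core gene (Wwtr1) in the comparison with vehicle, and in that with sham 3 of the 10 genes (Vgll3, Tead1 and Amot, the last with adjusted p = 0.0479) and 1 partner. For vehicle against sham, 2 targets were called with only these 2 groups, with the muscle covariate, without inhibitor libraries 1 and 2, and by DESeq2. Both with only the groups compared and without inhibitor libraries 1 and 2, inhibitor against sham gave 0 Hippo core genes and 1 target. With a replicate block it gave 0 Hippo core genes in place of 1 (Wwtr1, adjusted p = 0.0568) and called Vgll3 as before (adjusted p = 0.0109), and the block changed no other count of the 10 genes or the lists. Leaving out 1 library gave 0 to 1 targets for vehicle against sham. For inhibitor against sham it gave 1 to 1 of the 10 genes, 0 to 2 Hippo core genes, 1 to 3 targets and 0 to 1 partners.

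On the log2 scale, sign changes for vehicle against sham were as follows. With 1 library left out, Vgll4 ran from −0.295 to 0.087, Amot from −0.081 to 0.163, Amotl2 from −0.187 to 0.077, Ajuba from −0.439 to 0.439, Tnks from −0.358 to 0.0049 and Ctnna1 from −0.132 to 0.0029. Amot was at −0.016 without 7SL and U3 genes, −0.028 with the replicate block and −0.013 with protein-coding genes only. With the muscle covariate, Ajuba was at 0.147 and Tjp1 at 0.146. For inhibitor against vehicle, leaving out inhibitor libraries 1 and 2 gave −0.113 for Tead1, −0.34 for Tead3, −0.272 for Ankrd1 and −0.387 for Zyx. With 1 library left out, Tead3 ran from −0.182 to 0.354, Ankrd1 from −0.343 to 0.706, Magi1 from −0.832 to 0.119, Trip6 from −0.214 to 0.202 and Zyx from −0.415 to 0.263. In inhibitor against sham libraries, Tead2 was at 0.247 and Tead4 at −0.206 without inhibitor libraries 1 and 2. The angiomotin to TEAD ratio in that comparison was −0.052, and from −0.1 to 0.042 with 1 library left out. From raw counts, not per kilobase, it was −0.70 for vehicle against sham and 0.56 for inhibitor against vehicle.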
